A study of Mus musculus with 20 samples.

Results

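The 10 genes described here encode proteins of the brain extracellular matrix and its cell surface partners. They are the secreted glycoproteins Sparc and Sparcl1, the tenascins Tnc and Tnr, the hyaluronan-binding proteoglycans Vcan, Bcan and Ncan, and the membrane-spanning proteoglycans Cspg4, Cspg5 and Ptprz1. They were listed by name as a family, with earlier results of these data known, and make up 10 of the 18193 genes measured, with 26 probe sets that carry 1 gene symbol. The study measured RNA from progenitor cell lines of the mouse brain on 20 single-colour Affymetrix arrays, in 4 groups of 5. The groups were transduced (genetically modified) embryonic progenitors, control embryonic progenitors, transformed postnatal progenitors, and control postnatal progenitors. The labels name neither the introduced sequence nor the transforming agent, and give no strain, sex, exact age or brain region. Each sample title gives a cell line name, numbered within its group, and control and modified names share these numbers. Whether the names mark matched lines, and whether each sample is a culture of its own, is not said. The p-values therefore reflect the spread among arrays within groups, pooled over the 4 groups, and that spread may be technical only.

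The matrix of the brain holds little fibrous collagen and is built instead on hyaluronan, a long sugar chain. Lecticans, the family of versican, brevican and neurocan, bind hyaluronan at one end and tenascins at the other, and carry chondroitin sulfate chains that repel or guide growing axons. Glial progenitors make many of these proteins, and several of them are known for their abundance in gliomas.

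Array signals are linear intensities with no unit. Background was set on each array at the 95th percentile of its 27 bacterial control probe sets. It lay between 107.4 and 221.1 by array, and 61.28% to 73.17% of probe sets exceeded it. Glial progenitor markers were detected in every group, with summed signals over 7 measured markers of 147400 to 159400 in transduced, 245500 to 272400 in embryonic control, 236100 to 249500 in transformed and 291100 to 343800 in postnatal control cells. Markers of microglia, endothelium and pericytes were dim, with sums of at most 3217, 1886 and 2852 on any array. Within postnatal control, arrays 4 and 5 stood apart. Their mean log2 signal over 7 cycling cell markers was 12.30 and 12.14, against 14.79 to 14.83 on arrays 1 to 3. For the brightest probe set of each matrix gene, values without arrays 4 and 5 are therefore also given where a call changes. Calls of other probe sets, of marker genes and of genes on the lists below were not checked in this way. The log2 ratio of 3′ to 5′ control probes for Gapdh, a sign of RNA quality, had medians of -0.30 in transduced, -0.40 in embryonic control, -0.57 in transformed and -0.47 in postnatal control cells. For beta-actin the medians were 0.41, 0.33, 0.29 and 0.25 in the same order of groups, and the part of RNA quality in the results was not tested.

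Genes were called when limma gave an adjusted p under 0.05 and the change reached 2-fold. In transduced embryonic cells 8 of the 10 matrix genes fell and 0 rose, where 5.74% of all genes fell and 8.61% rose. In transformed postnatal cells 4 rose and 1 fell, where 9.56% of all genes rose and 6.40% fell. The median log2 change of the 10 genes was -1.60 in the embryonic cells and -0.07 in the postnatal cells, against 0.08 and 0.00 over all genes. The difference between the responses, postnatal minus embryonic, was tested as an interaction and was called in 8 genes, each with the more positive change in the postnatal cells, where 9.36% of all genes were called higher and 9.75% lower. For Tnr, this call rests on fitted values of transduced arrays below background. In bulk RNA, fewer cells of a type and less RNA per cell cannot be told apart.

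**Figure D1:**
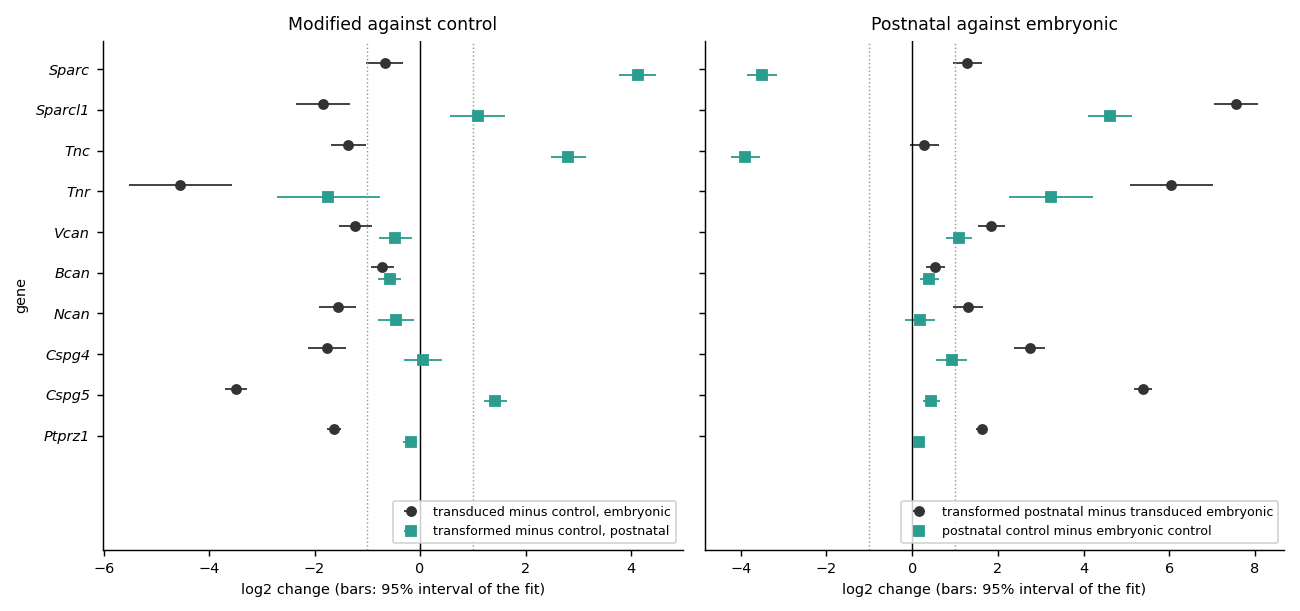
Log2 change of each of the 10 genes (rows), with the 95% interval of the fit as bars and the 2-fold lines dotted; the left panel shows the modified cells minus their controls, the right panel postnatal minus embryonic cells. On the left the embryonic changes of all 10 genes lie below 0, while the postnatal changes run between 4.13 for Sparc and -1.74 for Tnr, whose points involving transduced cells are fitted from arrays below background.

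Among the embryonic arrays the groups did not overlap for any of the 10 genes: every transduced array read below every embryonic control array. Groups without overlap in either direction made up 34.8% of all genes, and 2902 of the 18193 genes were lower in this way. Sparc and Bcan, at 1.59-fold and 1.64-fold lower, missed the 2-fold threshold. Neuron markers, all 7 of 7, fell in the same comparison, with summed signals of 23070 to 25150 in transduced cells and 82830 to 88240 in embryonic control cells. Of the glial progenitor markers 3 of 7 fell and 0 rose, with the sums given above, and of the astrocyte markers 3 of 8 fell and 0 rose. The summed astrocyte signal did not fall: it was 101800 to 119300 in transduced and 88890 to 103800 in embryonic control cells. Of 6 mature oligodendrocyte markers 1 fell and 0 rose, and their summed signal was 11450 to 15320 in transduced and 24190 to 28220 in embryonic control cells. The part of these marker lists in the matrix gene changes was not tested.

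**Figure D2:**
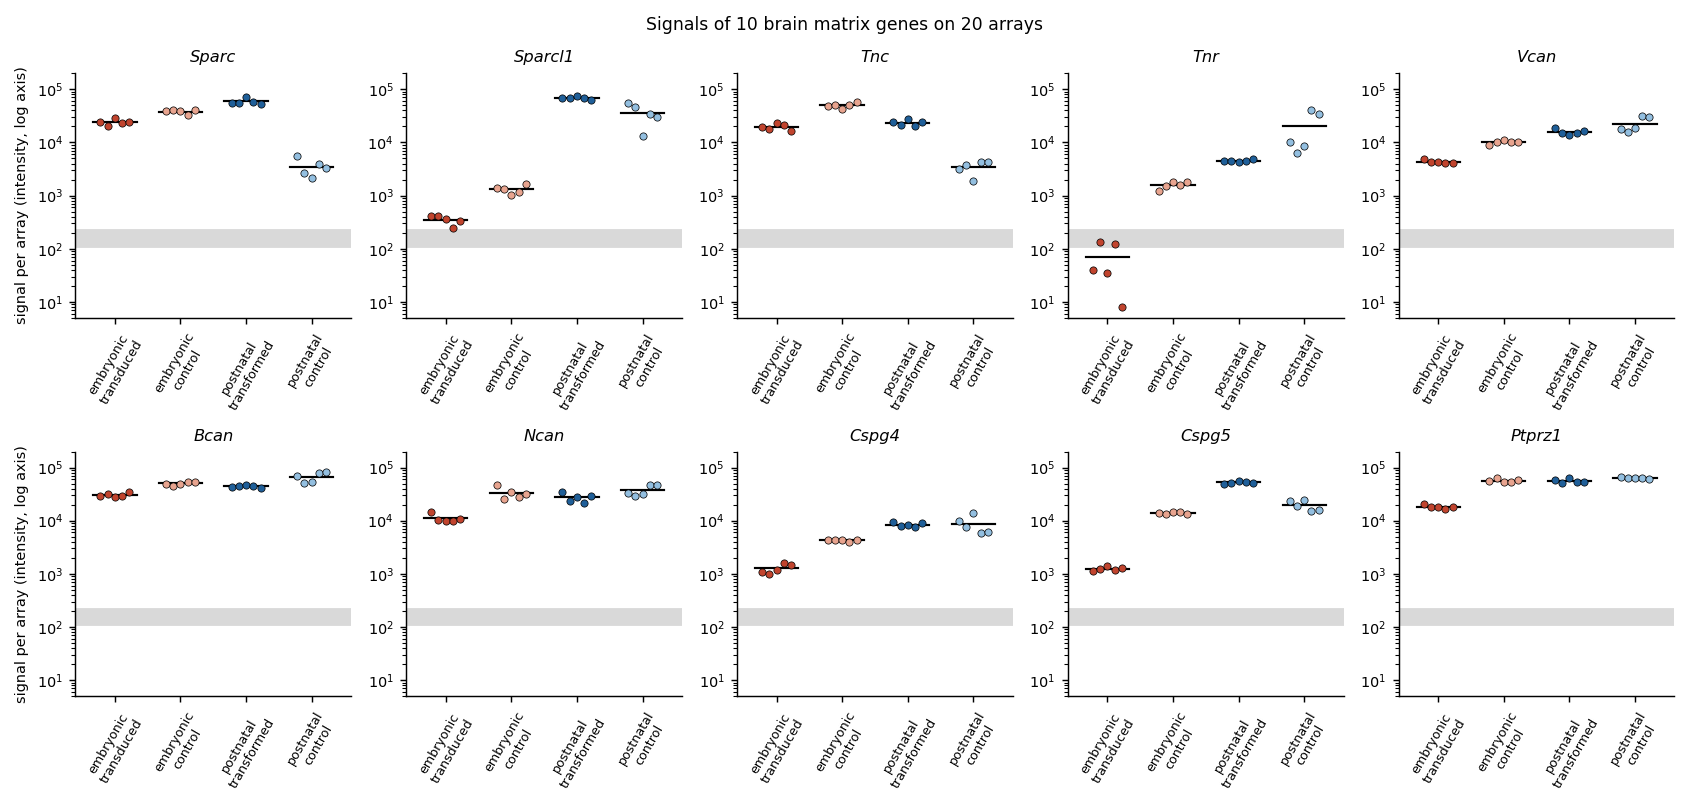
Signal of each gene's brightest probe set on each of the 20 arrays, on a log axis, with the group mean as a bar; the grey band is the range of the background level over the arrays. Tnr lies below background on all 5 transduced arrays, and the postnatal control arrays of Sparc and Tnc lie below the arrays of the other groups.

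Sparc, also called osteonectin, is a secreted collagen-binding protein that loosens the contact of cells with their matrix. Its signals were 24010, 20060, 28640, 23410 and 23990 in transduced cells, against 38800, 40100, 38860, 32280 and 40390 in embryonic control cells. They were 56200, 55540, 70480, 58660 and 53350 in transformed cells, against 5452, 2653, 2116, 3941 and 3366 in postnatal control cells. The groups separated at both ages but in opposite directions: the transduced arrays were the lower ones and the transformed arrays the higher ones. The transformed cells were 17.5-fold higher than their controls (log2 change 4.13 ± 0.17, SE; limma adjusted p = 1.71e-14). The embryonic difference of -0.67 ± 0.17 (limma adjusted p = 0.00246) was below 2-fold. The responses differed by 4.80 ± 0.24 (limma adjusted p = 8.27e-13). A second Sparc probe set, 1448392_at, gave 4.15 and -0.65 for the same responses, and the third, 1458204_at, was dim, with group means of 249.6 to 365, and gave no call.

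Sparcl1, or hevin, is a relative of Sparc that astrocytes secrete and that promotes synapse formation between neurons. It read 405, 417.2, 361.7, 242.1 and 335 in transduced cells, against 1366, 1314, 1012, 1163 and 1657 in embryonic control cells. It read 67620, 68650, 73020, 68210 and 63190 in transformed cells, against 53940, 45790, 13190, 33710 and 30360 in postnatal control cells. The embryonic groups thus lay far below the postnatal ones, while postnatal control array 3 was low within its own group. The gene fell by 1.84 ± 0.25 on the log2 scale in transduced cells (limma adjusted p = 2.65e-06) and was 2.13-fold higher in transformed cells (1.09 ± 0.25, limma adjusted p = 0.000999). Without postnatal control array 3 the postnatal change was 0.77 and no longer reached 2-fold. Summed over 8 astrocyte markers, that array also had the lowest postnatal control signal, 56660, against 81690 to 159000 on the other control arrays and 131600 to 136400 in transformed cells. By gene, 2 of the 8 rose and 4 fell in transformed cells, with a median log2 change of -1.57. The part of these markers in the Sparcl1 values was not tested.

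Tnc, the tenascin of the developing brain, gliomas and healing wounds, modulates cell adhesion and migration. Its signals were 19290, 17670, 23340, 20820 and 16590 in transduced cells, against 49430, 51170, 42910, 49530 and 56340 in embryonic control cells. They were 24640, 21350, 27160, 20630 and 24570 in transformed cells, against 3226, 3707, 1869, 4303 and 4291 in postnatal control cells. As with Sparc, postnatal control arrays were the lowest of the 20 and did not overlap any other group. Tnc fell 2.56-fold in transduced cells (-1.36 ± 0.16, limma adjusted p = 5.2e-07) and rose 7.03-fold in transformed cells (2.81 ± 0.16, limma adjusted p = 5.6e-12). The modified groups overlapped, and their difference of 0.28 ± 0.16 did not pass the test (limma adjusted p = 0.164; 95% interval -0.06 to 0.62). The second, dimmer Tnc probe set, 1456344_at, also rose in the postnatal cells, by 2.34 ± 0.40, but its embryonic change of -0.44 ± 0.40 was not called.

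Tnr, the tenascin of the central nervous system, comes mainly from the oligodendrocyte lineage and some neurons and links lecticans together in the nets around neurons. Its signals were 40.34, 136.4, 34.52, 124.9 and 8.112 in transduced cells, against 1236, 1527, 1782, 1608 and 1808 in embryonic control cells. They were 4552, 4455, 4354, 4402 and 4813 in transformed cells, against 9974, 6396, 8678, 40280 and 34810 in postnatal control cells. All 5 transduced arrays lay below background, every embryonic control array lay well above it, and postnatal control arrays 4 and 5 were several times brighter than arrays 1 to 3. The gene was therefore at least 8.57-fold lower in transduced cells (limma adjusted p = 5.5e-08). The fitted difference of responses was 2.81 ± 0.66 (limma adjusted p = 0.00152), and 1.36 with the transduced arrays set at background. That p-value rests on fitted values below background, and the difference of 1.36 was not tested. Tnr fell by 1.74 ± 0.47 on the log2 scale in transformed cells (limma adjusted p = 0.0042), and all 5 transformed arrays lay below all 5 controls. Without postnatal control arrays 4 and 5 that change was -0.86 and was no longer called (limma adjusted p = 0.0775). Of 6 mature oligodendrocyte markers 3 fell and 0 rose in transformed cells. Arrays 4 and 5 had the highest postnatal control sum over these markers, 105300 and 118000, against 38160 to 47530 on arrays 1 to 3 and 28720 to 31110 in transformed cells. The part of these markers in the Tnr values was not tested.

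The promoters of both genes that were lowest in postnatal control cells, Sparc and Tnc, are shown with that of Tnr, which was highest there. Mean signals of Vcan, Bcan, Ncan, Cspg4 and Ptprz1 were also highest in that group, and their promoters are not shown. Sequences are from RefSeq on GRCm38.p6, which listed 8 of the 10 genes with 9 windows, and each runs 5′ to 3′ over the 250 bases before a transcription start. Sparc lies on the minus strand at chr11:55420081-55420330, Tnc on the minus strand at chr4:64047016-64047265 for the outer of its 2 windows, and Tnr on the plus strand at chr1:159523519-159523768. Capitals mark matches to the GC box GGGCGG or the TATA box TATAAA on either strand.
Sparc promoter: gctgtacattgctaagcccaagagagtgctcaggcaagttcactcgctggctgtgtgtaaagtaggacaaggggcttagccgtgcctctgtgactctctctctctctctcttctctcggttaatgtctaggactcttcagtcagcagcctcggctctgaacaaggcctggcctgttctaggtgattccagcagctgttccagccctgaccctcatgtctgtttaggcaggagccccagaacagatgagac
Tnc promoter: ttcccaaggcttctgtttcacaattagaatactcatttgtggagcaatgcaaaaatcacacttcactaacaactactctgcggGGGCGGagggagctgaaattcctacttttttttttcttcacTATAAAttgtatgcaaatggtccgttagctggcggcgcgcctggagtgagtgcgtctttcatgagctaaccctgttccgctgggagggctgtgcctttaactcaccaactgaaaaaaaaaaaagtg
Tnr promoter: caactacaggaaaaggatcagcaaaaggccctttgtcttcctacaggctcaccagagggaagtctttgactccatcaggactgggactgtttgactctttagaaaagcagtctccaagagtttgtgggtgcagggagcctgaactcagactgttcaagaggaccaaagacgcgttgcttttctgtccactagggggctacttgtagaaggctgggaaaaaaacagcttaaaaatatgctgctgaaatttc
The Tnc window held a GC box starting 167 bases and a TATA box starting 126 bases before the start site, and the other windows shown held neither set of letters. Of the 9 windows, 7 held a GC box and 3 a TATA box, where 32.7% and 12.4% of all 32851 windows of that length did. An E-box CANNTG, not put in capitals, was in 5 of the 9 and in 66.2% of all windows. The AP-1 element TGANTCA and the SOX core AACAAT were in 0 of the 9, and in 6.75% and 9.42% of all windows. The motifs were searched on both strands, and in the windows shown no match overlapped another. The 2 Tnc windows overlap and share their GC and TATA boxes. Sparcl1 and Cspg5 were not matched.

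Among the lecticans, versican, neurocan and brevican differed in how far they moved. Vcan, the widest spread of the family, read 4782, 4190, 4313, 4184 and 4135 in transduced cells, against 8911, 10380, 11020, 10250 and 10290 in embryonic control cells. It read 18830, 14900, 13700, 14840 and 16110 in transformed cells, against 17630, 15470, 18310, 31160 and 30320 in postnatal control cells. The embryonic groups were apart, and the postnatal groups overlapped, with control arrays 4 and 5 above the rest. Vcan fell by 1.23 ± 0.15 on the log2 scale in transduced cells (limma adjusted p = 6.12e-07), and its postnatal change of -0.47 ± 0.15 (limma adjusted p = 0.0133) was under 2-fold. The difference of responses, 0.76 ± 0.21, was not called, but it was 1.10 and called without postnatal control arrays 4 and 5. The other probe sets above background on all 20 arrays were 1427257_at and 1421694_a_at. The first fell by 1.93 ± 0.23 in transduced cells and its responses differed by 1.84 ± 0.33 (limma adjusted p = 0.000106). The second gave -0.95 and 0.81, neither called. Of its 8 probe sets 5 lay near or below background and were not called in any comparison.

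Ncan, the neurocan of the young brain, read 14750, 10400, 9726, 9778 and 10970 in transduced cells, against 47030, 26150, 34180, 27800 and 31140 in embryonic control cells. It read 34930, 23380, 28420, 21790 and 29010 in transformed cells, against 33790, 29720, 31770, 46900 and 46760 in postnatal control cells. The first array of both embryonic groups was the brightest of its group, the embryonic groups were still apart, and the postnatal groups overlapped. Ncan fell 2.96-fold in transduced cells (-1.56 ± 0.17, limma adjusted p = 8.79e-08). Its other probe sets, 1423604_at and 1434679_at, gave -0.76 and -0.83 and were not called. The responses differed by 1.11 ± 0.23 (limma adjusted p = 0.000532), against 0.41 and 0.42 in those probe sets and 0.98 without embryonic control array 1, none of them called.

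Bcan, the lectican specific to the nervous system, was bright everywhere and not called in any of the 5 comparisons. Its signals were 28530, 31950, 28480, 28650 and 35260 in transduced cells, against 48460, 44760, 49980, 54360 and 53610 in embryonic control cells. They were 42870, 45310, 46000, 45200 and 42040 in transformed cells, against 70230, 51980, 54070, 79320 and 80880 in postnatal control cells. At both ages the modified arrays lay below all control arrays, with log2 differences of -0.72 ± 0.10 and -0.58 ± 0.10 (limma adjusted p = 6.97e-06 and 8.22e-05), short of 2-fold. The difference of these responses was 0.14 ± 0.15 (95% interval -0.17 to 0.44). The suffix of this probe set, 1441899_x_at, marks probes that may also match other sequences. The other, 1416718_at, was 1.86-fold lower in transduced and 1.99-fold lower in transformed cells, also not called.

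Among the membrane-spanning proteoglycans, Cspg5 was called in both responses. Its product, neuroglycan C, carries a growth factor-like domain and is known from neurons and glia. It read 1131, 1237, 1392, 1180 and 1265 in transduced cells, against 14120, 13510, 14890, 14770 and 13650 in embryonic control cells. It read 49870, 51830, 56190, 52610 and 51490 in transformed cells, against 23530, 19160, 24580, 15530 and 16120 in postnatal control cells. No group overlapped another: the order of levels was transformed, postnatal control, embryonic control and transduced. The gene fell 11.3-fold in transduced cells (-3.50 ± 0.10, limma adjusted p = 4.79e-17) and rose 2.69-fold in transformed cells (1.43 ± 0.10, limma adjusted p = 1.06e-10). The responses differed by 4.93 ± 0.14 (limma adjusted p = 1.34e-16), the largest estimate of the 10 genes beside 4.80 for Sparc.

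Cspg4, or NG2, marks oligodendrocyte progenitors and pericytes. Its signals were 1096, 986.1, 1192, 1569 and 1463 in transduced cells, against 4266, 4394, 4292, 4034 and 4407 in embryonic control cells. They were 9398, 7842, 8162, 7695 and 8914 in transformed cells, against 9672, 7500, 13700, 5788 and 6015 in postnatal control cells. The embryonic groups were apart by a wide gap and the postnatal arrays were interleaved. Cspg4 fell 3.41-fold in transduced cells (-1.77 ± 0.17, limma adjusted p = 2.48e-08), with a postnatal change of 0.05 ± 0.17 (95% interval -0.31 to 0.41). The responses differed by 1.82 ± 0.24 (limma adjusted p = 2.74e-06). Its second probe set gave -1.40 and 0.03 for the responses.

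Ptprz1 is a receptor tyrosine phosphatase that binds pleiotrophin and contactin-1, and its secreted splice form is the proteoglycan phosphacan. By its brightest probe set, 1452284_at, it read 20270, 18300, 17870, 16570 and 18110 in transduced cells, against 54920, 62300, 52340, 54580 and 59020 in embryonic control cells. It read 59070, 51110, 62840, 54010 and 53550 in transformed cells, against 66810, 63740, 64940, 62450 and 60270 in postnatal control cells. Only the transduced arrays stood apart, and the other groups overlapped. The gene fell by 1.64 ± 0.06 on the log2 scale in transduced cells (limma adjusted p = 7.79e-15), and the postnatal change of -0.18 ± 0.06 was not called.

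The probe sets of Ptprz1 changed in the same direction in both responses but by different amounts, least by the brightest, 1452284_at. In the postnatal response only 1418690_at was called. With 1427019_at the changes were -1.85 ± 0.06 in transduced and -0.33 ± 0.06 in transformed cells. With 1418690_at the signals were 1640, 1432, 973.5, 1062 and 1481 in transduced cells, against 22200, 19090, 21980, 21090 and 21190 in embryonic control cells. They were 10800, 11700, 13360, 11690 and 11610 in transformed cells, against 50630, 45900, 40880, 49640 and 41250 in postnatal control cells. By this probe set both modified groups lay below their controls with no overlap. It fell by 4.01 ± 0.11 on the log2 scale in transduced cells (limma adjusted p = 7.48e-18) and fell by 1.94 ± 0.11 in transformed cells (limma adjusted p = 2.58e-12). Which transcripts each probe set detects is not given in the sources used here.

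**Figure D3:**
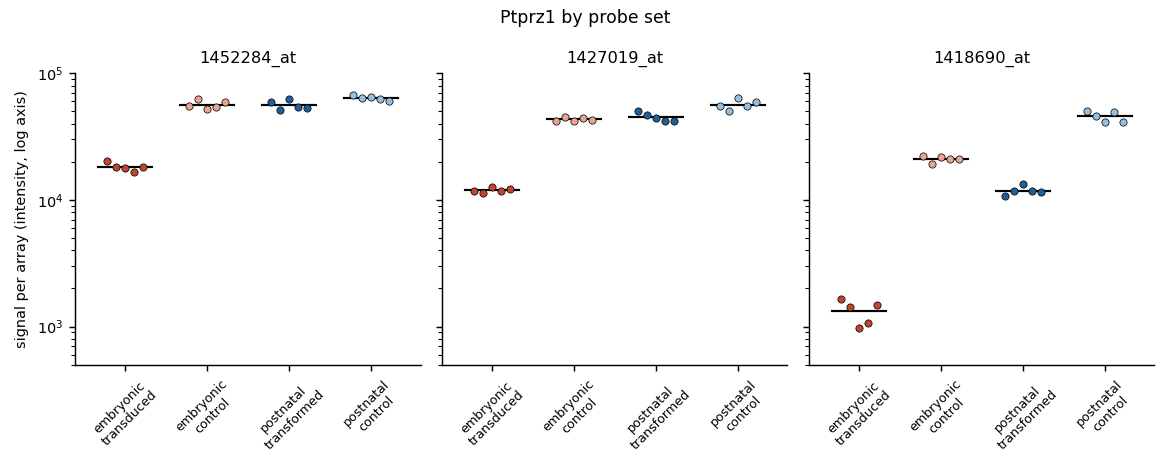
Signal of the 3 Ptprz1 probe sets on each of the 20 arrays, on a log axis, with group means as bars. Transformed and postnatal control arrays lie close together in the left and middle panels, while by 1418690_at the group means are 11830 in transformed and 45660 in postnatal control cells.

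The age comparisons set postnatal against embryonic cells, and also hold any difference in brain region, culture or preparation. Between the controls 3 of the 10 genes were higher in postnatal cells and 2 lower, where 4.86% of all genes were higher and 5.72% lower. The genes lower in postnatal control cells were Sparc, 11.4-fold (-3.51 ± 0.17, limma adjusted p = 1.32e-12), and Tnc, 14.8-fold (-3.89 ± 0.16, limma adjusted p = 1.72e-13). Those higher were Sparcl1, 24.6-fold (4.62 ± 0.25, limma adjusted p = 8.31e-12), Tnr (3.24 ± 0.47, limma adjusted p = 1.29e-05) and Vcan (1.09 ± 0.15, limma adjusted p = 6.59e-06). Without postnatal control arrays 4 and 5, Tnr was 2.37 higher, Vcan at 0.75 was no longer called, and Cspg4, at 0.92 with all arrays, was called at 1.22. Leaving out array 4 or array 5 alone gave 0.96 or 0.97 for Vcan, also not called, and 1.04 or 1.02 for Cspg4, called. Other bright probe sets of Vcan gave 0.88 (1421694_a_at) and 0.70 (1427257_at), not called, while 1450944_at of Cspg4 (1.01) and 1418690_at of Ptprz1 (1.11) were called. Marker lists moved with age in the controls too: 4 of 6 mature oligodendrocyte and 4 of 8 astrocyte markers were higher in postnatal cells and 0 lower. With arrays 4 and 5 included, 5 of 7 cycling markers were lower and 0 higher. On postnatal control arrays 1 to 3 the mean log2 of the cycling markers was 14.79 to 14.83, against 14.92 to 15.06 in embryonic control cells. The part of these markers in the age values was not tested.

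Between the modified cells 8 of the 10 genes were higher in transformed postnatal than in transduced embryonic cells and 0 lower, where 11.7% of all genes were higher and 13.7% lower. In 9 of the 10 the groups did not overlap, with every transformed array the higher, as in 21.8% of all genes. Sparcl1 was 188-fold higher (7.55 ± 0.25, limma adjusted p = 2.03e-16), Cspg5 41.8-fold (5.38 ± 0.10, limma adjusted p = 1.81e-20) and Tnr at least 24.5-fold (limma adjusted p = 2.42e-10). Cspg4 followed at 2.74 ± 0.17, Vcan at 1.85 ± 0.15, Ptprz1 at 1.62 ± 0.06, Ncan at 1.30 ± 0.17 and Sparc at 1.29 ± 0.17. Bcan (0.54) and Tnc (0.28) were not called, and neither were 1448392_at of Sparc (0.94) and 1434679_at of Ncan (0.95). The labels call the modified cells transduced at one age and transformed at the other, and do not say how the treatments differed. Any such difference cannot be told apart from that of age in this comparison.

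The postnatal control arrays with low cycling marker signals, 4 and 5, were also set beside arrays 1 to 3 for the matrix genes. By their brightest probe sets, Tnc, Tnr, Vcan, Bcan and Ncan were higher on these 2 arrays than on each of the other control arrays, and Cspg4, Cspg5 and Ptprz1 were lower. The share of all genes that separate these arrays in this way was not computed, so the split is a description only. By 1418690_at of Ptprz1 the 2 arrays lay within the range of the other 3. Sparc and Sparcl1 on these 2 arrays lay within the range of the other 3. Transformed arrays had cycling marker means of 12.15 to 12.43, and 6 of the 7 markers fell in transformed cells. Sparc, Sparcl1, Tnc and Cspg5 of the transformed arrays lay above all 5 control arrays, and Tnr and Bcan lay below them. Over all genes, 16.4% separated higher in this way and 15.9% lower. The part of cycling in the postnatal changes was not tested. Without arrays 4 and 5 the postnatal changes of Sparc, Sparcl1, Tnc and Cspg5 were 4.22, 1.09, 3.06 and 1.23 on the log2 scale.

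**Figure D4:**
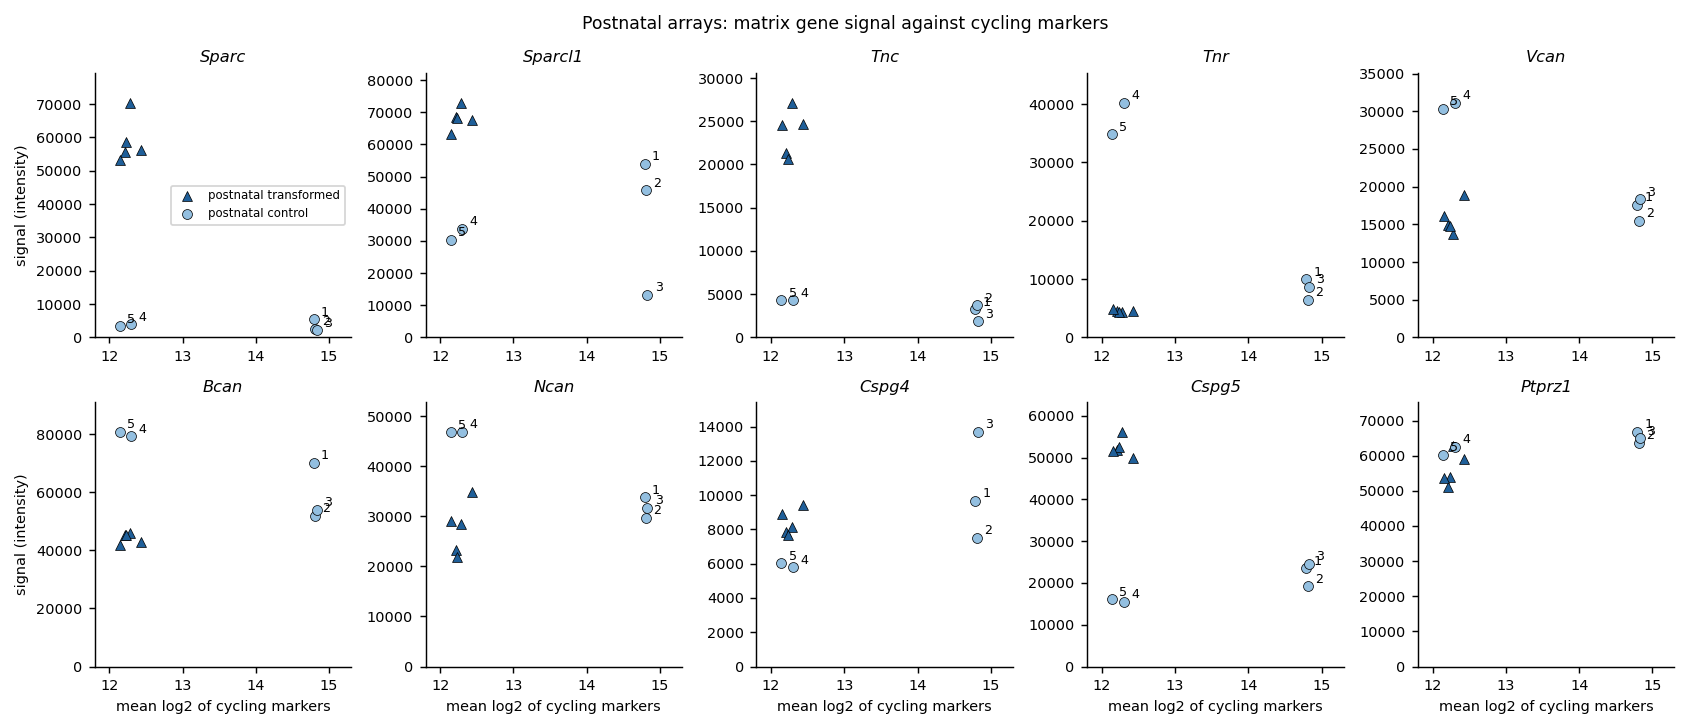
Signal of each gene as intensity (vertical, linear from 0) against the mean log2 signal of 7 cycling cell markers (horizontal) on the 10 postnatal arrays, with control arrays numbered. Control arrays 4 and 5, at 12.30 and 12.14, lie left with the transformed arrays, and above the other control arrays for Tnc, Tnr, Vcan, Bcan and Ncan.

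Relatives, builders, partners and cleavers of the matrix were described from 7 lists. Sdc3 is on 2 of them, and they were chosen with earlier results of these data known, so their counts are a description. Beside every list count stand the shares of all genes: 8.61% rose and 5.74% fell in transduced cells, and 9.56% and 6.40% in transformed cells. For the difference of responses the shares were 9.36% higher and 9.75% lower. Among ligands and receptors of these proteins, 1 of 19 rose and 5 fell in transduced cells, and 5 rose and 1 fell in transformed cells. The median log2 changes were -0.01 and 0.27, against 0.08 and 0.00 over all genes, which also hold beside the list medians below. Cntn1, the adhesion molecule contactin-1 that binds Ptprz1 and Tnr, averaged 1483 in transduced and 20700 in embryonic control cells (-3.79 ± 0.07, limma adjusted p = 7.32e-20). Ptn, the growth factor pleiotrophin and a ligand of Ptprz1, averaged 38290 in transduced and 93290 in embryonic control cells (-1.29 ± 0.09). The syndecan Sdc3, a pleiotrophin receptor, and the adhesion molecule Nrcam also fell, by 1.44 ± 0.05 and 1.13 ± 0.09. In transformed cells Itga8, an integrin subunit that binds tenascin-C, rose by 4.76 ± 0.46, to a mean of 38250 against 2086 in postnatal control cells. Itgav, Nrcam and Rtn4rl1 rose by 1.53 ± 0.08, 1.78 ± 0.09 and 2.89 ± 0.41, the last with control signals above background on 4 of 5 arrays. The response differed in 8 of 19 towards the postnatal cells, among them Cntn1 (4.54 ± 0.10), Nrcam (2.92 ± 0.12) and Ptn (1.56 ± 0.12), and in 1, Ptprf (-1.53 ± 0.15), towards the embryonic cells.

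The hyaluronan list held 14 measured genes, of which 1 rose and 0 fell in transduced cells and 5 rose and 0 fell in transformed cells (medians 0.23 and 0.46). Cd44, the hyaluronan receptor, rose at both ages, to 12300 against 2928 in embryonic control cells (2.07 ± 0.27, limma adjusted p = 1.63e-06) and to 16460 against 781.9 in postnatal control cells (4.60 ± 0.27, limma adjusted p = 6.88e-12). In transformed cells Cemip, a hyaluronan-degrading protein, averaged 3684 against 169.2 in postnatal control cells, where it was above background on 4 of 5 arrays (4.36 ± 0.22). The link protein Hapln4 and the hyaluronan synthase Has2 rose there by 1.94 ± 0.25 and 1.13 ± 0.34, and the Has2 arrays overlapped. Of 21 chondroitin sulfate enzymes 3 rose and 2 fell in transduced cells, and 4 rose and 1 fell in transformed cells (medians 0.04 and 0.54). The sulfotransferase Chst7 fell by 1.89 ± 0.23 in transduced cells, and the epimerase Dse, which turns chondroitin into dermatan sulfate, rose by 2.01 ± 0.17 in transformed cells. Xylt2, which adds the first sugar of the chain, was called in opposite directions, 1.76 ± 0.57 and -1.61 ± 0.57, with overlapping groups at both ages.

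Of 13 matrix proteases and their inhibitors 4 rose and 3 fell in transduced cells, and 3 rose and 0 fell in transformed cells (medians 0.51 and 0.08). Adamts1, Adamts4 and Adamts5, secreted proteases that cut lecticans, were the rises in transformed cells, by 3.25 ± 0.10, 2.37 ± 0.20 and 1.13 ± 0.19. Adamts5 fell by 3.10 ± 0.19 in transduced cells, to a mean of 405.6 against 3520 in embryonic control cells, and its responses differed by 4.23 ± 0.27 (limma adjusted p = 4.05e-11). Mmp2, a gelatinase, and Timp3, a protease inhibitor of the matrix, fell in transduced cells by 1.92 ± 0.22 and 2.10 ± 0.26, while the lysosomal protease Ctsl rose by 1.26 ± 0.08. Of 12 heparan sulfate proteoglycans 3 rose and 2 fell in transduced cells, and 5 rose and 0 fell in transformed cells (medians 0.25 and 0.52). The glypican Gpc1 fell by 1.80 ± 0.07 in transduced cells and rose by 1.06 ± 0.07 in transformed cells, and the responses differed by 2.85 ± 0.10 (limma adjusted p = 2.74e-15). Gpc4 and Sdc2 rose by 2.40 ± 0.12 and 1.45 ± 0.10 in transformed cells, and Sdc4 and Gpc6 rose by 2.42 ± 0.44 and 1.13 ± 0.06 in transduced cells.

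Of 8 other SPARC family and tenascin genes 0 rose and 2 fell in transduced cells, and 1 rose and 0 fell in transformed cells (medians 0.16 and -0.03). Smoc1, a relative of Sparc in basement membranes, fell by 1.71 ± 0.09 in transduced cells, to a mean of 4060 against 13320 in embryonic control cells. Spock3 averaged 39.74 in transduced and 185.2 in embryonic control cells, and Smoc2 averaged 114.8 in transformed and 24.99 in postnatal control cells, each above background on at most 2 of 5 arrays of a group. Fstl1, a secreted relative of Sparc, averaged 1372 in postnatal and 11630 in embryonic control cells (-3.14 ± 0.16). Of 10 small leucine-rich proteoglycans 1 rose and 1 fell in transduced cells, and 1 rose and 1 fell in transformed cells (medians 0.00 and -0.18). Prelp, a heparin-binding matrix protein, rose by 3.50 ± 0.41 in transduced cells, to a mean of 4148 against 356.3 in embryonic control cells.

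**Figure D5:**
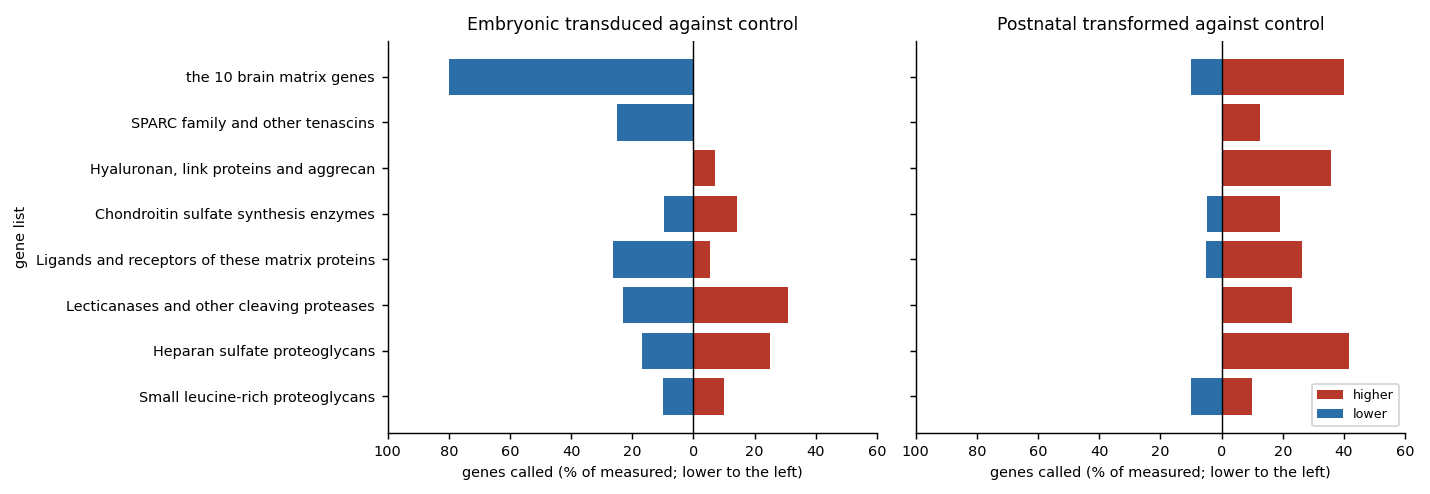
Share of the measured genes of each list (rows) that were called higher (right) or lower (left) in transduced embryonic cells (left panel) and transformed postnatal cells (right panel), each against its controls. The 10 matrix genes have 8 called lower in the left panel, and 4 higher and 1 lower in the right panel.

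The genes whose pattern over the 20 arrays came closest to Tnr, Sparcl1 and Cspg5, the members with the widest range of group means, were ranked, with fitted values for Tnr in transduced cells, by the root mean square difference of log2 values, each centred on its own mean. Nearest to Tnr were Vxn (0.69), Gpr17 (0.77), Ppp2r2b (0.78) and Phactr3 (0.89). Gpr17, a receptor of committed oligodendrocyte precursors, averaged 48 in transduced cells, below the range of background, and 1434 in embryonic control cells. The Gpr17 means were 2943 in transformed and 35805 in postnatal control cells. Nearest to Sparcl1 were Scrg1 (0.66), Anks1b (0.79), Afap1l2 (0.88) and Rlbp1 (0.93). Nearest to Cspg5 were Rbfox1 (0.37), Gria4 (0.38), Pde7b (0.48) and Ctnnd2 (0.49). Gria4, a subunit of AMPA-type glutamate receptors, averaged 731 in transduced and 7468 in embryonic control cells, and 31271 in transformed and 8718 in postnatal control cells. The range of group means on the log2 scale was 7.55 for Sparcl1, at least 6.35 for Tnr, whose fitted range was 7.79, and 5.38 for Cspg5, and 1.12 for Bcan, the smallest of the 10.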

How the data were processed

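Total RNA of 20 samples was measured on single-colour Affymetrix mouse arrays, 4 groups of 5 taken from the sample descriptions. The deposited table held 45101 linear intensities per array, 1 for each probe set. How the authors computed and normalized them is not given in the sources used here. After trimming 2% of values at each end, array means lay between 2500.01 and 2500.02, so the arrays were used as scaled. Precision is limited by the number of arrays. None of the arrays held identical values.

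Gene names came from the platform annotation, which assigned a single symbol to 34945 probe sets, while 932 had several symbols and were unused. Of several single-symbol probe sets, the one brightest on average over the arrays stood for the gene, and the other probe sets of a member were fitted on their own. The 4 group means were estimated together on log2(signal + 16) from all 20 arrays by limma 3.58.1 (lmFit and eBayes, trend on intensity) under R 4.3.3 and data.table (version 1.17.8). Tests were two-sided with Benjamini-Hochberg adjustment over 18193 genes, and errors of changes are standard errors. The 4 groups share 1 spread per gene, though their own spreads could differ. For Tnr the standard deviation of log2 signal was 1.22 in postnatal control and 0.06 in transformed cells. The offset understates changes of dim genes. Where all 5 arrays of a group lay below background, the fold is a bound, against the higher of background and signal on each array. The script was tested on simulated data.

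The 10 members and the lists were chosen with earlier results of these data known. Named genes were all members, up to 4 called genes of each list and comparison with the smallest p, of which examples are printed, and the 4 nearest patterns of 3 members. Samples with the same number did not deviate together (r from -0.05 to 0.06 between the embryonic groups and -0.02 to 0.02 between the postnatal groups), so no pairing was used. Alternatives were offsets of 1 and 64, quantile normalization, centring on the 75th percentile, a filter on dim genes, other probe set rules, no trend, no fold threshold, the 2 groups alone, the replicate number as a block, and leaving out arrays.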

Additional observations from a re-analysis of the deposited data

Results flagged for a closer look

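The responses of 8 genes differed between the postnatal and the embryonic cells by the interaction term in limma. The difference, postnatal minus embryonic on the log2 scale, was 4.80 for Sparc, 2.93 for Sparcl1, 4.17 for Tnc, 2.81 for Tnr as fitted (1.36 with the transduced arrays, all below background, set at that level), 1.11 for Ncan, 1.82 for Cspg4, 4.93 for Cspg5 and 1.45 for Ptprz1, with adjusted p between 1.34e-16 (Cspg5) and 0.00152 (Tnr). The Tnr p-value belongs to the fitted difference, and the value of 1.36 was not tested.

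Single arrays stood far from the others of their group for 3 genes. Sparc on embryonic control array 4, at 32280, was the lowest of its group with a gap of 0.821 of the group's range on the log2 scale. Vcan on transduced array 1, at 4782, and Ncan on transduced array 1, at 14750, were the highest of their group, each with a gap of 0.71 of the log2 range. Chance gives such a gap in about 1 in 20 of the 40 groups of values examined.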

How the results depend on the processing

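Without a fold threshold 9 of the 10 genes passed in the postnatal response and 9 between the controls, against 5 in each with it; over all genes the counts were then 7162, 7692, 7083, 5830 and 9479 for the embryonic response, postnatal response, difference, control ages and modified ages, against 2611, 2904, 3475, 1925 and 4634. With the replicate block the 5 counts of members were 8, 5, 8, 5 and 8, as without it, and no member's call changed. That block gives each number a shift shared by all 4 groups, so it does not model a pairing within an age. Leaving out each array in turn gave 8 to 8, 4 to 5, 7 to 8, 5 to 5 and 8 to 8. Leaving out postnatal control arrays 4 and 5 gave 8, 4, 9, 5 and 8. Under quantile normalization the difference for Ncan was 0.99 and not called, and the median of all genes between the modified ages moved to 0.00 from -0.14 and that of the difference to 0.04 from -0.07. All-gene calls were then 2426 higher and 2202 lower between the modified ages (2135 and 2499 as deposited), 1991 and 1547 in the difference (1702 and 1773), and 51.2% higher in the embryonic response (60%). The mean of all probe sets ended the embryonic calls of Tnc (-0.90) and Vcan (-0.50), the difference of Ncan (0.65), the control age call of Vcan (0.38) and the modified age calls of Sparc (0.81) and Vcan (0.73). Dim probe sets changed sign: Vcan 1433043_at 0.20 (embryonic) and -0.28 (modified ages), 1447586_at 0.16 and -0.18, 1447887_x_at -0.68 (control ages), 1459767_x_at 0.53, -0.07 (control ages) and -0.54, and Sparc 1458204_at -0.61 (postnatal) and 0.06 (control ages). The cause was not tested. Offsets of 1 and 64, the 75th percentile, the filter, no trend and the fits of 2 groups changed no member's call. Tnr in transduced cells lies below background, so its fold is only bounded.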
